A study of Oryza sativa with 12 samples.

Results

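Of the 37672 loci in the authors' deposited expression table for rice seedlings, 664 (1.76%) span at least 200 bases and carry no annotated gene, and these gene-free loci are described here. They were taken as all loci whose gene entry is empty and whose interval reaches that length, and the rule used no expression value. The rule left out 1 further gene-free locus, of 39 bases. Cufflinks, which assembles RNA-seq reads into transcripts, is among the tools in the submitters' processing notes, with genome build IRGSP-1.0. A gene-free locus is therefore read here as a place where reads were assembled and no annotated gene was assigned. On this reading, being listed at all depends on expression. Every one of them is unannotated by construction, with no exon, intron or UTR to report. The table gives no strand and no sequence, and the sequence of these loci was not analysed here.

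In plant genomes, transcripts outside annotated genes are known to include long non-coding RNAs, transposable element transcripts, protein-coding genes missed by the annotation, and pieces of neighbouring genes such as unannotated ends. Long non-coding RNAs are transcribed and spliced much like messenger RNAs but are usually weakly expressed, and in plants some act in the response to light, cold or phosphate supply. The deposited table has nothing that sorts the gene-free loci into these classes.

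The tissue was the whole aerial part of Nipponbare rice, sampled in 4 groups of 3 biological replicates. They were 12-day plants of OsC3'H1 knockout line a, 12-day plants of knockout line b, 12-day wild type and 5-day wild type. The knockouts were of the T3 generation, and each letter stands for 1 line. OsC3'H1 encodes the p-coumaroyl ester 3-hydroxylase of the lignin pathway. The kind of mutation is not given in the sources used here. The labels mention a move on day 7 to a hypotonic tap-water solution for the wild-type controls alone, so genotype and growth solution cannot be told apart in any comparison of a knockout line with 12-day wild type. Against 5-day wild type, genotype and age also differ together. The titles and the source names give the line letters opposite ways, and the titles are followed here. If the source names are right, every value given for line a belongs to line b and the other way round.

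The table holds 1 FPKM value (a fragment level scaled by transcript length and by the fragments mapped) per group over its 3 replicates. Values per replicate and sequencing depth are unknown, so no spread between replicates can be shown beside a level, and no limit can be put on a value listed at 0. The error after each log2 ratio was obtained by dividing that ratio by its deposited Cuffdiff statistic. A locus is said to be called, higher or lower where the test is listed as done and the deposited q is under 0.05. As a check of the labels, the targeted gene Os05g0494000 stood at 10.7 FPKM in line a and 12.9 FPKM in line b, against 53.1 FPKM in 12-day wild type and 65.7 FPKM in 5-day wild type. Transcripts of green shoot were abundant in every group, and RBCS (Os12g0274700), the small subunit of Rubisco, stood at 1507 and 1452 FPKM in lines a and b, against 23720 and 20083 FPKM in 12-day and 5-day wild type. LSI1 (Os02g0745100), a silicon channel known from roots, stood at 6.56 and 6.99 FPKM in the lines, against 2.31 and 10.7 FPKM in the wild types in the same order. RBCS thus moved with the groups, and its part in the results below was not tested. In whole aerial parts, fewer cells of a type and less RNA per cell cannot be told apart.

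The gene-free loci were short. Their intervals had a median length of 1642.5 bases, against 3315 bases for the 35770 loci of the same minimum length that hold 1 annotated gene. The shortest was 224 bases and the longest 300357 bases, and the central 50% ran between 974.5 and 3364 bases. By size, 22 spanned under 500 bases, 151 spanned 500 to under 1000, 210 spanned 1000 to under 2000, 180 spanned 2000 to under 5000 and 101 spanned 5000 or more. Only 5 were under 300 bases and 19 were over 20000 bases.

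The long intervals mostly belonged to merged regions rather than to single transcripts. In the deposited table, loci that overlap are all given 1 common interval, and no distinct interval overlaps another. An interval was shared with another locus by 63 gene-free loci (9.49%), against 37.4% of the one-gene loci. Of the 63, 36 shared it with an annotated locus and 27 with other gene-free loci alone. Their median interval was 10008 bases. Among the 19 intervals over 20000 bases, 14 were shared, including the longest: XLOC_016452 on chromosome 4 (24946170 to 25246527, 300357 bases) has the interval of 44 loci, XLOC_031661 on chromosome 10 (18813593 to 18959041) that of 26 and XLOC_003167 on chromosome 1 (7216512 to 7309527) that of 14. For such a locus the length of its own transcript is not known. The 601 gene-free loci with an interval of their own had a median of 1441 bases, against 2550.5 bases for the 22406 such one-gene loci. The longest of these 601 was XLOC_037223 on chromosome 12 (17187360 to 17268160, 80800 bases).

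**Figure D1:**
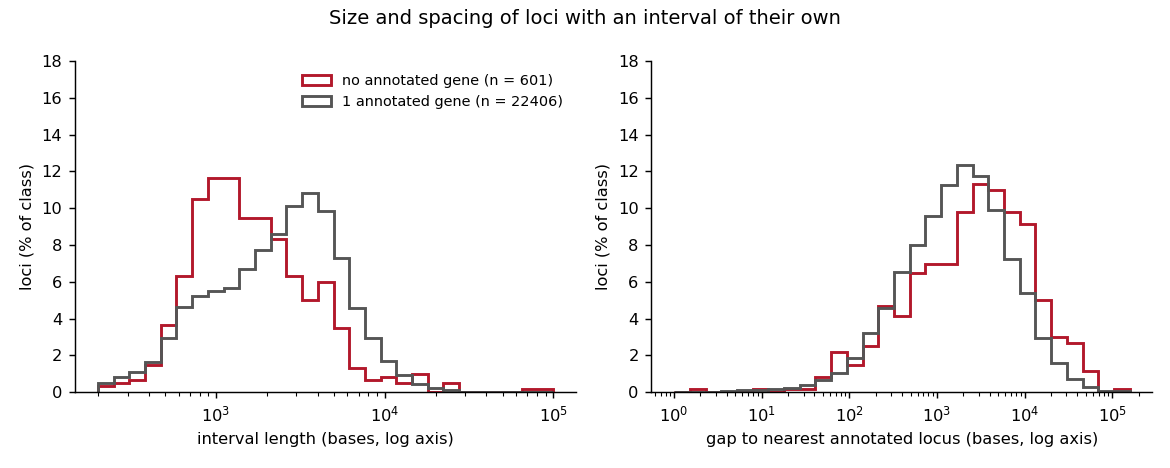
Interval length in bases (left) and gap in bases to the nearest annotated locus (right), both on log axes, for gene-free loci (red, n = 601) and one-gene loci (grey, n = 22406) that share their interval with no other locus. The vertical axes give the percent of each class per bin. Gene-free loci lie to the left in length, with medians of 1441 and 2550.5 bases, and to the right in gap, with medians of 2821 and 1829 bases.

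All 12 chromosomes carried gene-free loci, and their density was uneven. Chromosome 12 had the highest share, with 61 gene-free loci or 27.8 per 1000 loci, against 17.6 per 1000 over the genome. Chromosomes 3 and 5 had the lowest, with 54 loci (12.1 per 1000) and 37 loci (12.3 per 1000). Chromosomes 10 and 9 followed chromosome 12 with 21.3 and 20.9 per 1000. Counted by length of chromosome covered by the table, the range ran between 1.24 per Mb on chromosome 5 and 2.31 per Mb on chromosome 2, where 83 lay, with 2.22 per Mb on chromosome 12 and 1.78 per Mb overall. Chromosome 1 had the most gene-free loci, 87, at 16.6 per 1000.

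Most gene-free loci lay apart from annotated ones. The gap to the nearest annotated locus had a median of 2481.5 bases and reached 122888 bases. An annotated locus was overlapped by 36 (5.42%), lay 1 to 1000 bases away for 183 (27.6%), over 1000 and up to 5000 bases for 229 (34.5%) and over 5000 bases for 216 (32.5%). One-gene loci were closer to their nearest annotated neighbour, with 58.5% overlapping or within 1000 bases, against 33.0% of the gene-free loci. That difference came in part from shared intervals. Among loci with an interval of their own, 28.3% of the gene-free loci lay within 1000 bases of an annotated locus, against 33.8% of the one-gene loci, and 34.8% lay beyond 5000 bases, against 21.6%. The farthest were XLOC_028832 at the start of chromosome 9 (5642 to 22292, 122888 bases from Os09g0100750), XLOC_037140 on chromosome 12 (12691049 to 12695273, a gap of 67622 bases) and XLOC_030065 on chromosome 9 (7411906 to 7412723, a gap of 58122 bases).

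The 183 loci at 1 to 1000 bases from an annotated locus were about as abundant as that neighbour. Their median level was 2.95, 3.61, 3.46 and 3.62 FPKM in line a, line b, 12-day wild type and 5-day wild type. The neighbours stood at a median of 3.10, 3.20, 2.99 and 2.53 FPKM in the same groups. The gene-free locus was the lower of the pair in 88, 82, 90 and 88 of the 183 pairs.

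Gene-free loci also lay near each other in places. A further gene-free locus stood within 5000 bases of 102 of them, and within 1000 bases of 78, although the median distance between neighbouring ones was 159517.5 bases. The 102 formed 47 runs of at most 4 loci. By summed level, both lines lay above both wild types in 16 runs and below both in 15, and 16 runs showed neither. Only 2 runs held 4 loci. The run on chromosome 1 at 808144 to 833815 (XLOC_002702 to XLOC_002705) had levels of 0.829 to 2.69 FPKM in line a and 2.08 to 3.49 FPKM in line b, against 0 to 0.589 FPKM in 12-day and 0.542 to 1.15 FPKM in 5-day wild type. All 4 of its loci stood at 1 interval, and none was tested in any comparison. The run at 20849581 to 20861295 on the same chromosome (XLOC_001078 to XLOC_001081) had a summed level of 5.26 FPKM in line a and 13.6 FPKM in line b, against 3.16 FPKM in 12-day and 7.44 FPKM in 5-day wild type, so line a lay between the wild types.

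The gene-free loci were widely but weakly transcribed. Their median level was 3.75 FPKM in line a, 3.76 FPKM in line b, 3.58 FPKM in 12-day wild type and 3.68 FPKM in 5-day wild type. For one-gene loci the medians were 2.50, 2.54, 1.99 and 1.75 FPKM, and 8087 of them were listed at 0 in all 4 groups. Levels above 0 in all 4 groups were found for 600 gene-free loci (90.4%), against 62.3% of one-gene loci. The part that the way loci came to be listed has in this difference was not tested. At the upper end the order turned round. At 20 FPKM or more stood 41 gene-free loci (6.17%) in line a, 43 (6.48%) in line b, 53 (7.98%) in 12-day wild type and 54 (8.13%) in 5-day wild type, against 20.1% to 20.8% of the one-gene loci. The highest of the 4 group values had a median of 5.98 FPKM over the gene-free loci, reached 20 FPKM in 81 and 100 FPKM in 5. The shortest class was the most abundant by this measure, with a median of 21.9 FPKM under 500 bases, 7.65 FPKM at 500 to under 1000, 4.62 FPKM at 1000 to under 2000, 6.05 FPKM at 2000 to under 5000 and 5.68 FPKM at 5000 or more. FPKM divides by transcript length, and for loci near the fragment length the value depends strongly on how that length was corrected.

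More gene-free loci passed a low level in the knockouts than in the wild types. At 1 FPKM or more stood 609 (91.7%) in each knockout line, against 532 (80.1%) in 12-day wild type and 534 (80.4%) in 5-day wild type. Among one-gene loci the shares were 57.4% and 57.5% in the lines, against 55.4% and 54.2% in the wild types. Counted locus by locus, 94 gene-free loci (14.2%) stood at 1 FPKM or more in both lines and under it in 12-day wild type, and 19 (2.86%) the other way. For one-gene loci the 2 shares were 3.46% and 1.71%. Against 5-day wild type 99 gene-free loci (14.9%) stood at 1 FPKM or more in both lines and under it in 5-day wild type. The other way were 24 (3.61%). For one-gene loci these shares were 4.37% and 1.53%. The level under which 10% of the gene-free loci lay was 1.14 and 1.21 FPKM in lines a and b, against 0.408 and 0.240 FPKM in 12-day and 5-day wild type. Few of these loci had a test. Of the 94, 25 were tested in both lines against 12-day wild type, and 9 (36.0%) were called in both, against 48.2% of the one-gene loci chosen and tested in the same way. Of the 99, 34 were tested in both lines against 5-day wild type and 21 (61.8%) were called in both, against 53.9% of such one-gene loci. How deeply each group was sequenced is unknown, and the part of depth in this difference was not tested. Gene-free loci are read here as places where reads were assembled, while one-gene loci can be listed at 0 in all 4 groups. The shares of the 2 classes are thus not like for like, and the part of listing was not tested. The 94 and the 99 were picked by the same levels that their calls rest on.

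**Figure D2:**
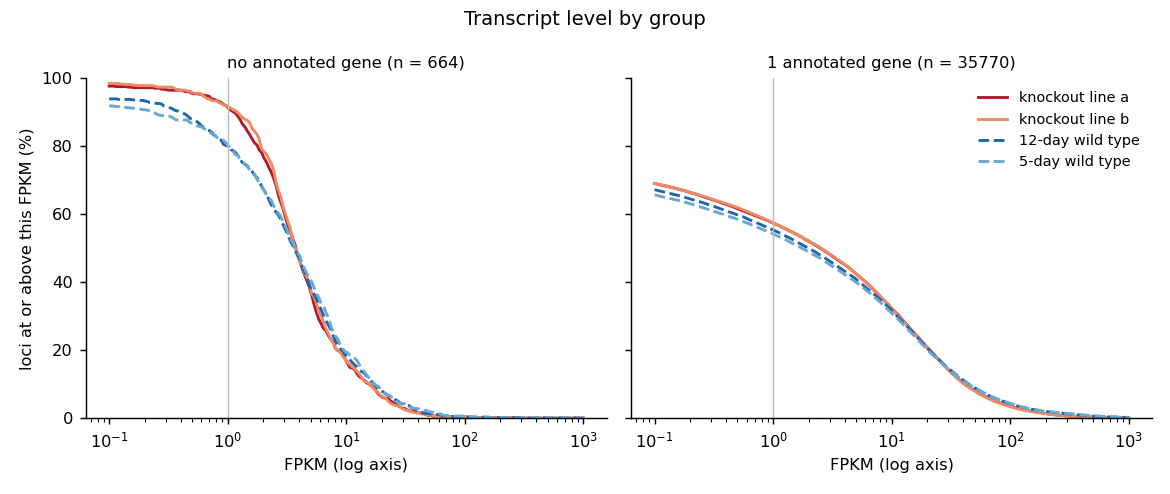
Percent of loci at or above each FPKM (log axis) in each of the 4 groups, for the 664 gene-free loci (left) and the 35770 one-gene loci (right), from 1 deposited value per group. Solid red and orange lines are knockout lines a and b, dashed blue lines are 12-day and 5-day wild type, and the grey line marks 1 FPKM, where 91.7% and 91.7% of gene-free loci in the lines stand above 80.1% and 80.4% in the wild types.

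The group in which a gene-free locus was highest was line a for 154, line b for 188, 12-day wild type for 130 and 5-day wild type for 191, and 1 locus was listed at 0 in all 4. The same count over other loci is not given here. Levels listed at 0 were rare. Of the 664 gene-free loci, both lines alone were above 0 for 18, both lines and 12-day wild type for 22, and both lines and 5-day wild type for 8. Line b alone was above 0 for 5, line a alone for 1 and both wild types alone for 1. Among the 35770 one-gene loci these patterns held, in that order, for 799, 784, 451, 616, 591 and 205.

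The 6 most abundant gene-free loci differed from each other in how they varied over the groups. XLOC_030619 (chromosome 9, 19196692 to 19196926, 234 bases, 475 bases from Os09g0496250) was the highest, with 263 FPKM in line a, 288 FPKM in line b, 291 FPKM in 12-day wild type and 263 FPKM in 5-day wild type. XLOC_001001 (chromosome 1, 18684944 to 18685168, 224 bases) stood at 109, 107, 100 and 126 FPKM in line a, line b, 12-day wild type and 5-day wild type. Neither was called in any of the 6 comparisons. Over 12-day wild type the deposited log2 ratios of XLOC_030619 were -0.15 ± 0.35 and -0.02 ± 0.34 for lines a and b. XLOC_001001 had 0.11 ± 0.60 and 0.10 ± 0.60 in the deposited table for the same comparisons.

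XLOC_035832 (chromosome 12, 5620951 to 5621761, 810 bases, 5378 bases from Os12g0207600) was an abundant wild-type transcript that was low in the knockouts. It stood at 19.7 and 19.3 FPKM in lines a and b, against 161 FPKM in 12-day wild type and 105 FPKM in 5-day wild type. The deposited log2 ratio over 12-day wild type was -3.03 ± 0.31 in line a and -3.07 ± 0.32 in line b (deposited q = 0.000253 for each, the smallest in the table). It was also lower in both lines than in 5-day wild type, and higher in 12-day than in 5-day wild type by a deposited log2 ratio of 0.62 ± 0.22.

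XLOC_018352 (chromosome 5, 24862273 to 24864823, 2550 bases, 22824 bases from Os05g0504800) went the other way. It stood at 102 and 99.6 FPKM in lines a and b, against 68.4 FPKM in 12-day wild type and 42.4 FPKM in 5-day wild type. Its deposited log2 ratios over 12-day wild type were 0.58 ± 0.21 and 0.54 ± 0.21 in lines a and b, each called, and 12-day over 5-day wild type was 0.69 ± 0.22, also called. The remaining members of the top 6 were lower in the lines than in at least 1 wild type. XLOC_036086 (chromosome 12, 15469815 to 15470619) had 37.5 and 34.2 FPKM in lines a and b, against 63.2 and 76.0 FPKM in 12-day and 5-day wild type, and was called lower against both. XLOC_034551 (chromosome 11, 4505083 to 4505819) had 62.3 and 60.9 FPKM in the lines, against 73.1 and 115 FPKM in the wild types, and was called lower only against 5-day wild type. Its deposited log2 ratios over 12-day wild type were -0.23 ± 0.25 and -0.26 ± 0.25 in lines a and b.

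The first comparison sets 12-day plants of the OsC3'H1 knockout lines against wild type of the same age, with growth solution differing too. In line a over 12-day wild type, 412 gene-free loci were tested and 138 (33.5%) were called, against 44.8% of all tested loci. Higher were 61 (14.8%), against 21.3% of all, and lower were 77 (18.7%), against 23.5% of all. In line b over 12-day wild type 412 were tested and 136 (33.0%) were called, against 46.3% of all tested loci. Higher were 57 (13.8%), against 22.2% of all, and lower were 79 (19.2%), against 24.2% of all. Lower calls outnumbered higher ones in both lines, and the median deposited log2 ratio of the tested gene-free loci was -0.13 and -0.10 for lines a and b, against -0.00 and 0.00 over all tested loci. The share of gene-free loci called was thus below that of loci as a whole. Their deposited ratios were also less precise, with a median implied log2 error of 0.70 and 0.71 in lines a and b, against 0.35 and 0.35 for all tested loci. A normal p taken from the deposited statistic, which rests on that error and leaves out loci with a group at 0, called 47 of 401 gene-free loci (11.7%) in line a over 12-day wild type, against 22.2% of all loci with such a p. In line b it called 49 of 396 (12.4%), against 23.0% of all, so that the calls fell over the whole table.

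The shortfall was not seen in the share of tested loci called with a ratio of at least 2-fold, loci at 0 included. A locus with 1 group at 0 is counted there as over 2-fold. Called with a ratio of at least 2-fold were 87 gene-free loci (21.1%) in line a over 12-day wild type, against 20.8% of all tested loci. Of these 35 (8.50%) were higher, against 9.83% of all, and 52 (12.6%) were lower, against 11.0% of all. In line b over 12-day wild type 95 (23.1%) were called at 2-fold, against 21.9% of all. There 37 (8.98%) were higher, against 10.3%, and 58 (14.1%) were lower, against 11.6%. These shares of tested loci were near those of loci as a whole in both lines. Among tested loci that had a 2-fold ratio, with the lower group at 1 FPKM or more, gene-free loci were called less often. In line a 72 of 133 (54.1%) were called, against 89.1% of all such loci. In line b 72 of 125 (57.6%) were called, against 89.3%.

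The share called depended on the level. Among gene-free loci whose higher value in line a or 12-day wild type was under 5 FPKM, 7 of 70 were called, against 23.1% of one-gene loci at that level. At 5 to 10 FPKM the shares called were 26.5% of 189 and 29.1%, at 10 to 20 FPKM 47.7% of 88 and 38.4%, and at 20 FPKM or more 60.0% of 65 and 57.6%. For line b over 12-day wild type the shares of gene-free loci called were 17.6%, 26.8%, 41.9% and 55.1% in the same classes, against 22.3%, 30.1%, 40.1% and 59.4% of one-gene loci. In both lines the gene-free loci lay under the one-gene loci at the lowest levels, and from 5 FPKM upwards within 10 percentage points of them.

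**Figure D3:**
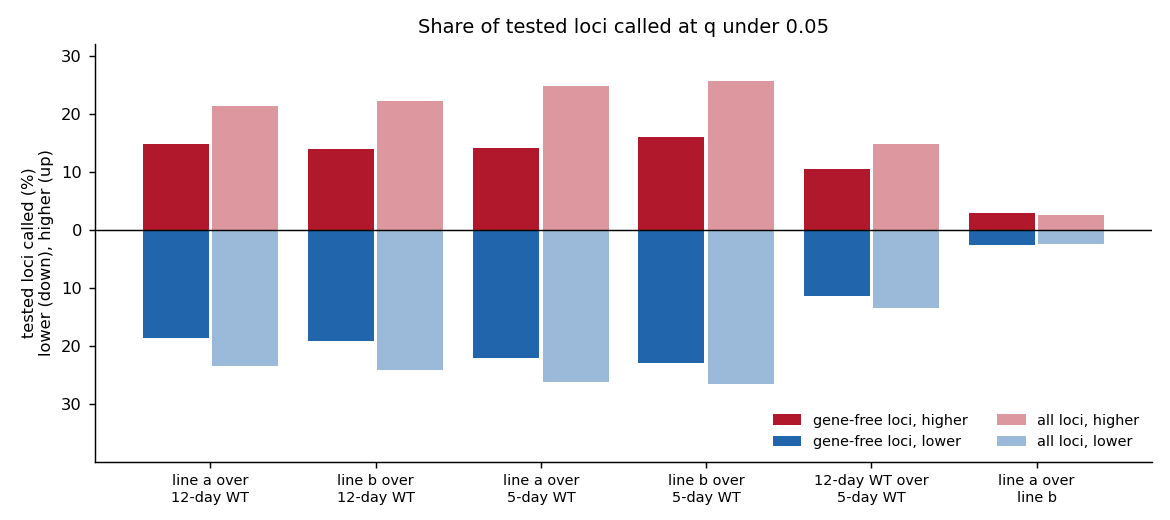
Percent of tested loci called at a deposited q under 0.05 in each of the 6 comparisons, higher above the line in red and lower below it in blue, with gene-free loci in dark bars and all loci in pale bars to their right. Gene-free loci lie below all loci in both directions in the 5 comparisons that involve a wild type, and slightly above them in line a over line b (5.44% against 5.00%).

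Both lines were called higher than 12-day wild type at 43 gene-free loci (11.2% of the 384 tested in both), against 18.5% of all such loci. Both were called lower at 58 (15.1%), against 21.3% of all. No gene-free locus was called in opposite directions in the lines, and the same count over all loci is not given here. The lines share the wild-type libraries, so these are not independent counts. The 43 higher loci had a median length of 3528 bases and a median highest level of 10.7 FPKM. The 58 lower loci were shorter and more abundant, with medians of 1428.5 bases and 19.7 FPKM. The median gap to an annotated locus was 4729 bases for the higher and 3510 bases for the lower loci, against 2481.5 bases for all gene-free loci. Within 1000 bases lay 13 of the 43 and 16 of the 58, against 33.0% of all gene-free loci. Beyond 5000 bases lay 20 of the 43 and 26 of the 58, against 32.5%.

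Among the higher loci above 0 in every group, the largest ratio belonged to XLOC_029168 (chromosome 9, 12196043 to 12198068, 2025 bases, 4579 bases from Os09g0368900). It stood at 11.9 and 13.1 FPKM in lines a and b, against 0.350 FPKM in 12-day wild type and 0.233 FPKM in 5-day wild type. The deposited log2 ratio over 12-day wild type was 5.09 ± 1.73 in line a and 5.22 ± 1.73 in line b (deposited q = 0.00976 for each). Over 5-day wild type the deposited ratios were larger, 5.68 ± 1.83 and 5.81 ± 1.82, and were not called (deposited q = 0.380 for each).

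XLOC_031951 (chromosome 10, 22594994 to 22599698, 4704 bases, 985 bases from Os10g0570001) was called higher against both wild types. It had 7.68 and 6.25 FPKM in lines a and b, against 0.531 and 0.212 FPKM in 12-day and 5-day wild type, with deposited log2 ratios over 12-day wild type of 3.85 ± 0.74 and 3.56 ± 0.75. XLOC_011804 on chromosome 3 (1131737 to 1135105) had 7.77 and 7.61 FPKM in the lines, against 1.00 and 0.0441 FPKM in the wild types. Its deposited ratio over 12-day wild type was called at 2.95 ± 1.09 in line a and 2.92 ± 1.12 in line b, and over 5-day wild type a deposited ratio of 7.46 ± 11.79 in line a was not. XLOC_035265 on chromosome 11 (24046076 to 24060037) and XLOC_032153 on chromosome 10 (3659623 to 3661561) completed the rises, each called against both wild types. They stood at 7.91 and 5.33 FPKM in line a and at 10.1 and 4.54 FPKM in line b, against 1.31 and 0.801 FPKM in 12-day wild type.

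XLOC_026174 (chromosome 7, 28712508 to 28714718, 2210 bases) lay 38 bases from Os07g0678300, and both moved the same way. The gene-free locus had 11.0 and 8.44 FPKM in lines a and b, against 1.29 and 0.631 FPKM in 12-day and 5-day wild type. Its deposited log2 ratios over 12-day wild type were 3.09 ± 1.35 and 2.71 ± 1.34, both called. Os07g0678300 stood at 70.1 and 76.5 FPKM in the lines, against 34.1 and 23.3 FPKM in the wild types, and was called higher as well. Whether the gene-free locus is an unannotated stretch of the neighbouring transcript was not tested.

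XLOC_024734 (chromosome 7, 28050879 to 28053410, 2531 bases, 403 bases from Os07g0664400) was among the 6 largest rises over both wild types. It stood at 49.0 FPKM in line a and 37.4 FPKM in line b, against 7.77 FPKM in 12-day wild type and 1.11 FPKM in 5-day wild type. All 6 comparisons called it. The deposited log2 ratios were 2.66 ± 0.35 in line a and 2.27 ± 0.35 in line b over 12-day wild type, 2.81 ± 1.01 for 12-day over 5-day wild type, and 0.39 ± 0.23 for line a over line b (deposited q = 0.0128). XLOC_026426 on chromosome 8 (2878864 to 2888829) and XLOC_037059 on chromosome 12 (9993807 to 9996551) were in the same set of 6. XLOC_026426 had 10.6 and 11.2 FPKM in lines a and b, against 1.93 and 1.48 FPKM in the wild types, and XLOC_037059 had 5.75 and 6.82 FPKM, against 1.21 and 0.743 FPKM.

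Among the falls, XLOC_019320 (chromosome 5, 14646766 to 14647555, 789 bases, 15224 bases from Os05g0316800) stood at 3.71 and 2.47 FPKM in lines a and b, against 39.9 FPKM in 12-day wild type and 22.9 FPKM in 5-day wild type. The deposited log2 ratio over 12-day wild type was -3.43 ± 0.75 in line a and -4.01 ± 0.93 in line b. Os05g0316800 went the other way, with 12.4 and 10.6 FPKM in lines a and b, against 6.79 and 6.22 FPKM in the wild types, and was called higher. XLOC_036909 (chromosome 12, 4989469 to 4991892) had 1.59 and 1.74 FPKM in the lines, against 18.5 and 13.8 FPKM in the wild types, with deposited log2 ratios over 12-day wild type of -3.54 ± 0.55 and -3.41 ± 0.50. Both gene-free loci were called lower against both wild types, and at both of them the lines lay under both wild types.

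XLOC_014157 covered 69643 bases of chromosome 4 (9115952 to 9185595) and lay 38064 bases from any annotated locus. It stood at 5.27 and 4.96 FPKM in lines a and b, against 43.0 and 27.3 FPKM in 12-day and 5-day wild type, and its deposited log2 ratios over 12-day wild type were -3.03 ± 0.53 and -3.12 ± 0.49. The nearest annotated locus, Os04g0234600, had 205 and 183 FPKM in the lines, against 1510 and 982 FPKM in the wild types, and was also called lower. XLOC_008142 (14278532 to 14280042) and XLOC_008143 (14288759 to 14289647) lay next to each other on chromosome 2, 53050 and 43445 bases from the nearest annotated locus, Os02g0445100. XLOC_008142 had 3.62 and 4.45 FPKM in the lines, against 27.3 and 17.5 FPKM in the wild types. XLOC_008143 had 2.02 and 1.49 FPKM, against 10.5 and 15.0 FPKM, so both were low in both lines and both were called against both wild types. XLOC_032357 on chromosome 10 (10873255 to 10874130) had 2.62 and 3.59 FPKM in the lines, against 17.7 and 17.2 FPKM.

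**Figure D4:**
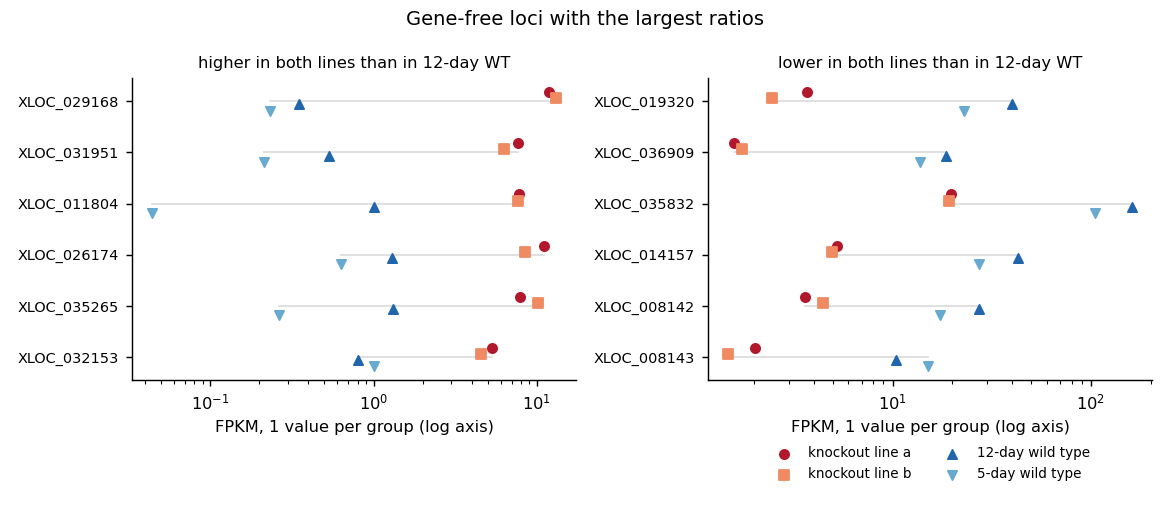
FPKM (log axis, 1 deposited value per group) of the 6 gene-free loci with the largest rise (left) and the 6 with the largest fall (right) in both knockout lines over 12-day wild type, ranked by the smaller of the 2 log2 ratios. Red circles and orange squares are knockout lines a and b, dark and pale blue triangles are 12-day and 5-day wild type; in every row both lines lie on one side of both wild types.

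Loci listed at 0 give no ratio and are given by their levels alone. All 5 gene-free loci that were called higher in both lines and listed at 0 in 12-day wild type follow. XLOC_022568 (chromosome 6, 14299387 to 14316526) stood at 25.9 and 14.1 FPKM in lines a and b, and was listed at 0 in both wild types. XLOC_035775 (chromosome 12, 4088703 to 4089508) had 10.4 and 12.7 FPKM in the lines and XLOC_036966 (chromosome 12, 6567115 to 6567681) had 4.45 and 5.39 FPKM, and both were listed at 0 in both wild types. XLOC_025342 on chromosome 7 had 10.3 and 6.86 FPKM in the lines, against 0 and 0.336 FPKM in 12-day and 5-day wild type. XLOC_016323 on chromosome 4 had 7.35 and 7.68 FPKM in the lines, against 0 and 2.36 FPKM. The reverse was seen at 1 locus, XLOC_021380 (chromosome 6, 24729545 to 24730723, 22004 bases from Os06g0616900), which was listed at 0 in both lines and stood at 4.87 and 9.40 FPKM in 12-day and 5-day wild type. These counts of 5 and 1 are given without those over all loci.

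The deposited test treated a value of exactly 0 and a value near 0 unlike each other. In line a over 12-day wild type, 10 of 11 tested gene-free loci with 1 group at exactly 0 were called. Where the lower group lay above 0 and under 0.5 FPKM, 1 of 22 was called, at a median absolute deposited log2 ratio of 4.31. In line b over 12-day wild type the counts were 15 of 16 and 2 of 22. Over all loci in line a the same classes gave 82 of 96 and 21 of 162 called. A large ratio that rests on a value just above 0 was thus seldom called, as at XLOC_029168 over 5-day wild type.

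Against 5-day wild type, where age differs too, 152 of 420 tested gene-free loci (36.2%) were called in line a, against 50.9% of all tested loci. Of these 59 (14.0%) were higher, against 24.7% of all, and 93 (22.1%) were lower, against 26.2%. In line b 163 of 418 (39.0%) were called, against 52.2% of all. There 67 (16.0%) were higher, against 25.6%, and 96 (23.0%) were lower, against 26.6%. At 2-fold or more the calls were 117 (27.9%) in line a, against 25.0% of all, and 118 (28.2%) in line b, against 26.4% of all. These held 46 (11.0%) higher in line a, against 12.4%, and 71 (16.9%) lower, against 12.6%. In line b they held 51 (12.2%) higher, against 12.9%, and 67 (16.0%) lower, against 13.4%. A group at 0 was found at 19 of the 117 and 25 of the 118, against 156 of 4582 and 166 of 4849 over all loci. The normal p of the deposited statistic called 59 (14.8%) in line a, against 26.4% of all, and 56 (14.3%) in line b, against 27.6% of all. Calls in all 4 knockout comparisons in 1 direction were found at 28 higher loci (7.93% of the 353 tested in all 4), against 14.8% of all loci. They were found at 42 lower loci (11.9%), against 16.9% of all. The 4 comparisons share libraries, so this is a description. A single gene-free locus was called higher than 12-day and lower than 5-day wild type, and the same count over all loci is not given here. This was XLOC_037223, the 80800-base interval on chromosome 12. It stood at 24.7 and 24.8 FPKM in lines a and b, against 13.0 FPKM in 12-day wild type and 40.5 FPKM in 5-day wild type. Both lines lay between the wild types, with deposited log2 ratios of 0.93 ± 0.33 and 0.94 ± 0.40 over 12-day wild type and -0.71 ± 0.23 and -0.71 ± 0.32 over 5-day wild type.

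The second question, what differs between wild-type shoots of 12 and 5 days, involves no knockout. The 12-day plants had passed the day of the move to the hypotonic solution and the 5-day plants had not, so age and growth solution cannot be told apart here either. Of 365 tested gene-free loci 80 (21.9%) were called, against 28.3% of all tested loci. At 12 days 38 (10.4%) were higher, against 14.8% of all, and 42 (11.5%) were lower, against 13.5%. At 2-fold or more 30 (8.22%) were called, against 6.97% of all, with 15 (4.11%) higher, against 5.13%, and 15 (4.11%) lower, against 1.84%. The normal p of the deposited statistic called 17 (4.71%), against 8.51% of all. Among loci above 0 in both wild types, the largest rise was that of XLOC_028204 (chromosome 8, 16252571 to 16256916, 4345 bases), at 24.6 FPKM in 12-day and 2.69 FPKM in 5-day wild type, a deposited log2 ratio of 3.19 ± 0.67. The knockout lines stood higher still, at 38.4 and 41.6 FPKM in lines a and b, and were called over 12-day wild type. Its nearest annotated locus, Os08g0355400, went the other way, with 5.10 FPKM in 12-day and 38.9 FPKM in 5-day wild type, and was called lower. XLOC_024734 came next, and XLOC_036948, XLOC_016319, XLOC_020872 and XLOC_033468 completed the 6 largest such rises. The last 4 were at 4.09 to 7.77 FPKM in 12-day and 0.924 to 1.73 FPKM in 5-day wild type. In lines a and b XLOC_036948 stood at 11.9 and 11.7 FPKM, and XLOC_033468 at 3.31 and 4.42 FPKM. XLOC_016319 stood at 1.46 and 0.622 FPKM in the lines, and XLOC_020872 at 0.0787 and 0.238 FPKM. Of these 4, only XLOC_016319 in line a was called against 12-day wild type, as lower. A further 3 loci called higher, named after their values were seen, XLOC_005904, XLOC_025055 and XLOC_037206, had 4.92, 8.65 and 4.89 FPKM in 12-day wild type and were listed at 0 in 5-day wild type, which gives no ratio.

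In the other direction XLOC_034628, also named after its values were seen, was listed at 0 in 12-day wild type and stood at 6.20 FPKM in 5-day wild type. Among loci above 0 in both, XLOC_004976 (chromosome 1, 39780603 to 39783507, 636 bases from Os01g0912700) stood at 0.340 FPKM in 12-day and 6.75 FPKM in 5-day wild type, the largest fall, with a deposited log2 ratio of -4.31 ± 1.23. It was near 0 in the 12-day knockouts as well, at 0.0970 and 0.0785 FPKM in lines a and b. Os01g0912700 was called higher in 12-day than in 5-day wild type, at 299 and 128 FPKM. XLOC_036975 on chromosome 12 (6821010 to 6825174) had 0.769 FPKM in 12-day and 6.76 FPKM in 5-day wild type, and XLOC_003263 on chromosome 1 (8531650 to 8533527) had 0.561 and 4.80 FPKM in the same order. XLOC_018422, XLOC_013851 and XLOC_003758 had 1.04 to 1.54 FPKM in 12-day and 5.41 to 6.12 FPKM in 5-day wild type. Each of these gene-free loci stood under 7 FPKM at 5 days.

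Lines a and b, of the same age and genotype label, differed at few gene-free loci. In line a over line b 19 of 349 tested (5.44%) were called, against 5.00% of all tested loci, so the share is near that of loci as a whole. Higher were 10 (2.87%), against 2.52% of all, and lower were 9 (2.58%), against 2.47%. Called at 2-fold or more were 11 (3.15%), against 0.828% of all, with 5 (1.43%) higher, against 0.319%, and 6 (1.72%) lower, against 0.509%. With a normal p taken from the deposited statistic 0 of 344 gene-free loci were called between the lines, against 0.661% of all loci, and 4 of the 344 (1.16%) had an unadjusted p under 0.05, against 1.59% of all. The 3 named first were listed at 0 in 1 line. XLOC_032272 (chromosome 10, 7620808 to 7621306, 498 bases) stood at 17.5 FPKM in line a and was listed at 0 in line b and in both wild types. XLOC_023814 (chromosome 7, 7840655 to 7842302, 284 bases from Os07g0241050) was listed at 0 in line a and both wild types and stood at 15.9 FPKM in line b. XLOC_022401 (chromosome 6, 9409205 to 9409864) was listed at 0 in line a and 12-day wild type, at 6.74 FPKM in line b and at 0.302 FPKM in 5-day wild type. Each of these transcripts was thus essentially seen in 1 of the 4 groups, and without values per replicate it is not known in how many of the 3 replicates.

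XLOC_014299 (chromosome 4, 16358584 to 16361972) had 5.53 FPKM in line a and 0.375 FPKM in line b, and was listed at 0 in both wild types, with a deposited log2 ratio of line a over line b of 3.88 ± 1.93. XLOC_015266 (chromosome 4, 31807389 to 31807725, 336 bases) had 45.1 FPKM in line a and 13.7 FPKM in line b, against 5.39 and 2.05 FPKM in 12-day and 5-day wild type. Its deposited log2 ratio of line a over line b was 1.72 ± 0.79 and called, while 3.07 ± 1.12 for line a over 12-day wild type was not called in the deposited table (deposited q = 0.110). XLOC_036963 (chromosome 12, 6492899 to 6493411) had 3.92 FPKM in line a and 12.3 FPKM in line b, against 0.479 and 0 FPKM in the wild types, with a deposited ratio of -1.65 ± 1.08.

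A group of 3 gene-free loci on chromosome 7, chosen after its values were seen, held a larger difference in level than any of these 6 and was not called between the lines. XLOC_024906, XLOC_024907 and XLOC_024908 share the interval 587735 to 594536, 963 bases from Os07g0110500. In line b they stood at 68.7, 7.78 and 8.97 FPKM, whereas in line a the first was at 0.267 FPKM and the other two were listed at 0. All 3 were listed at 0 in both wild types. Line b over each wild type was called for all 3 in the deposited table (q = 0.000253). Line a over line b had a deposited q of 0.377, 0.179 and 0.177 for the 3 loci, and for XLOC_024906 a deposited log2 ratio of -8.01 ± 7.91.

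**Figure D5:**
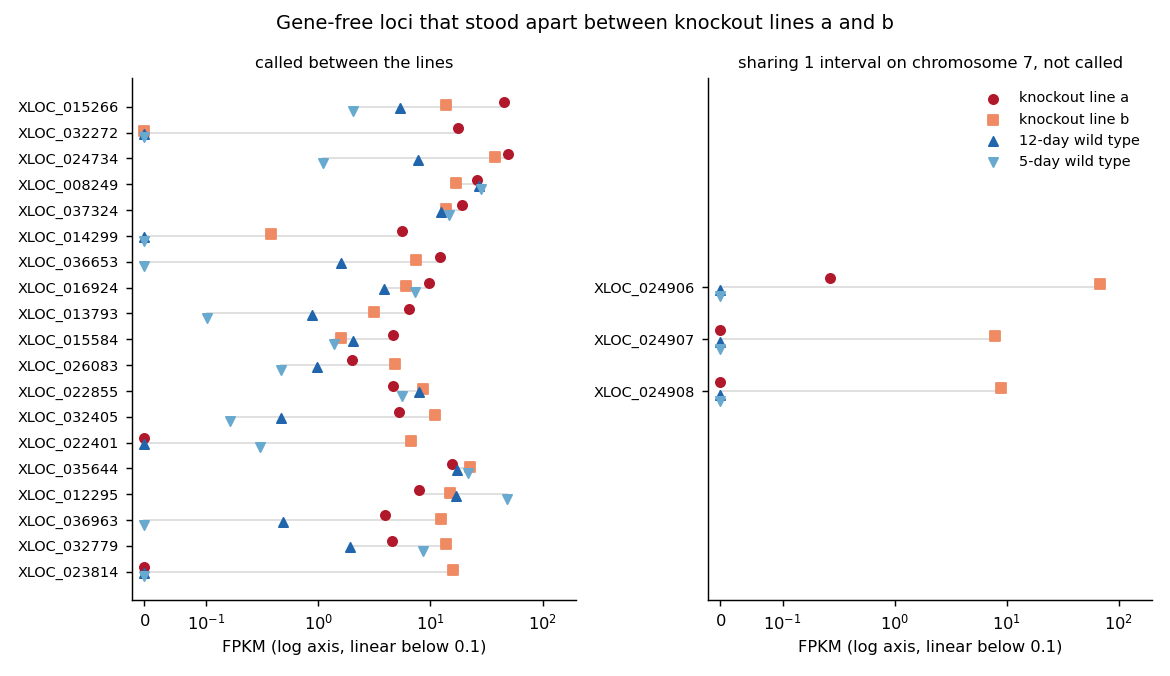
FPKM (log axis, linear below 0.1, 1 deposited value per group) of the 19 gene-free loci called in line a over line b (left) and of the 3 loci on chromosome 7 that share the interval 587735 to 594536 and were not called (right). Red circles and orange squares are lines a and b, blue triangles are the wild types; on the right line b stands at 68.7, 7.78 and 8.97 FPKM, with line a and both wild types at 0.267 FPKM or 0.

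Whether a gene-free locus moved with the nearest annotated locus was counted where both were called. In line a over 12-day wild type this held for 38 pairs, of which 24 (63.2%) moved the same way, against 55.0% of the pairs of one-gene loci and their nearest annotated locus. In line b 20 of 28 pairs (71.4%) moved the same way, against 56.1% of one-gene pairs. Pairs at 1 to 1000 bases moved together in 6 of 7 cases for line a, against 53.0% of one-gene pairs at that distance, and in 8 of 9 cases for line b, against 51.7%. Against 5-day wild type the pairs that moved together numbered 28 of 43 (65.1%) for line a, against 54.5% of one-gene pairs, and 20 of 39 (51.3%) for line b, against 54.6%. At 1 to 1000 bases they numbered 10 of 13 for line a, against 52.8%, and 11 of 14 for line b, against 52.2%. Between 12-day and 5-day wild type they were 9 of 17 (52.9%), against 59.2% of one-gene pairs, and 4 of 7 at 1 to 1000 bases, against 56.6%. Over all distances the gene-free pairs thus lay above the one-gene pairs in 3 of these 5 comparisons and below them in the other two. The 4 knockout comparisons share libraries and many of the same pairs, so the counts do not add up to separate evidence. Most gene-free loci that were called could not enter the count, since the nearest annotated locus was either not tested or not called.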

How the data were processed

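RNA-seq of 12 rice samples was taken, per the submitters' processing notes, through FastQC and Trimmomatic for the reads, HISAT2, then Cufflinks and Cuffdiff, with IRGSP-1.0 as the genome build. Versions, options and the annotation release are not given in the sources used here. The authors' deposited table holds FPKM values, 1 per group over 3 replicates. It also holds the authors' deposited log2 ratios, a score (the Cuffdiff test statistic), and a p-value and q-value per locus and comparison. The deposited q-values were adjusted over 108602 tests of all 6 comparisons together, and the smallest p was 5e-05. There are no counts or values per replicate, so no count model, no standard deviation and no detection floor could be computed. Loci near identical to another place in the genome, such as organelle-like sequence, cannot be picked out from the table, and values of such loci are uncertain.

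From the table, loci with an empty gene entry and at least 200 bases were taken, and all tests were read from the full table. Intervals are printed as deposited, and length is end minus start. The gap is the unsigned distance to the nearest interval with an annotated gene. Loci were called at a deposited q under 0.05. The implied error is the log2 ratio over the statistic. For p between its extremes, the normal deviate of the deposited p was a median 1.75 times the statistic. At the median the deposited p is thus smaller than this error would give. At some ratios that rest on a value near 0 it was larger. An example is XLOC_029168 in line a over 5-day wild type, with 5.68 ± 1.83 and a deposited Cuffdiff p of 0.2375.

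The named loci were chosen by a written rule: the 6 highest, the 6 largest rises and falls in each of 3 sets of comparisons, up to 5 with a group at 0, the 6 largest between the lines, and the 3 longest and 3 farthest. Members, lists and rules were chosen with earlier results of these data known. Annotated loci are given by identifier alone, without names, except those of the tissue check, whose symbols came from the earlier work. Calculations used Python 3.11.15 with pandas 2.3.3, numpy 2.4.6 and scipy 1.17.1. Calls from the normal p and its adjustment were tested on simulated data, and the gap on a small made-up set of intervals. The deposited calls and the counts of levels, runs and pairs were not tested in that way.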

Additional observations from a re-analysis of the deposited data

Results flagged for a closer look

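Among the 19 gene-free loci that the deposited test of line a over line b called, the 6 with the largest differences are given here, since both lines carry the same genotype label. XLOC_032272 was listed at 17.5 FPKM in line a and 0 in line b. XLOC_023814 was listed at 0 in line a and 15.9 FPKM in line b, and XLOC_022401 at 0 in line a and 6.74 FPKM in line b. The authors' deposited log2 ratio of line a over line b was 3.88 at XLOC_014299, 1.72 at XLOC_015266 and -1.65 at XLOC_036963. The titles and source names disagree on the line letters, so the direction of each depends on the titles being right.

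The gene-free locus left out for its length, XLOC_003706 on chromosome 1 (20162086 to 20162125, 39 bases), had a far higher FPKM than any other gene-free locus. It was listed at 1599470 FPKM in line a and 1404420 FPKM in line b, against 7225430 FPKM in 12-day wild type and 2724740 FPKM in 5-day wild type. The deposited log2 ratio over 12-day wild type was -2.18 in line a and -2.36 in line b. A locus shorter than a typical fragment has an FPKM that depends on the length correction, and its level is not comparable with the others.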

How the results depend on the processing

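With a deposited q under 0.01 the gene-free loci called over 12-day wild type fell to 88 (21.4%) in each line. Over all tested loci the shares were 34.8% and 36.1% in lines a and b. In line b over 5-day wild type 104 (24.9%) were called, against 41.8% of all tested loci. In 12-day over 5-day wild type 47 (12.9%) were called, against 18.8%. In line a over line b 8 (2.29%) were called, against 2.24%. With a ratio of at least 2-fold the counts that moved by over 1.5 times were 87 in line a over 12-day wild type, 30 between the wild types and 11 in line a over line b. A normal p taken from the deposited statistic rests on the implied error. It called 47 and 49 gene-free loci in lines a and b over 12-day wild type, and 59 and 56 over 5-day wild type. It called 17 between the wild types and 0 in line a over line b. Over all loci the same rule called 4059, 4205, 4788, 5031, 1465 and 118 in these 6 comparisons. In that last comparison 4 of 344 loci had an unadjusted p under 0.05 from the normal p, and the deposited test called 19. Adjusting over the comparison alone left 5 calls in line a over line b. Of the 70 loci called one way in both lines against both wild types, 45 remained at q under 0.01 and 40 at 2-fold. The same counts over all loci are not given here. At 5 FPKM in place of 1, the loci reaching the level were 251 in line a, 250 in line b, 254 in 12-day and 268 in 5-day wild type, with no excess in the knockouts. Within 500 bases of an annotated locus lay 145. Pairs moving with the nearest annotated locus were 13 in line b over 12-day wild type and 17 and 13 in lines a and b over 5-day wild type at q under 0.01.

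All 110 called ratios of named loci kept their sign after median centring and with a pseudocount of 1 FPKM, which made each smaller and moved 22 by more than their implied error. Leaving out the gene-free loci that share an interval, an alternative added after seeing the data, left 129, 125, 141, 149, 76 and 18 calls in the 6 comparisons. Counts over all loci under that alternative are not given here. No paired analysis was possible because the table holds 1 value per group, and for that reason no replicate was left out in turn. Unknown depth limits every statement on loci at or near 0.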
